A study of Mus musculus with 42 samples.

Results

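The mitochondrial respiratory chain subunits were followed through RNA-seq of the mouse carotid intima and of cultured endothelial cells (ECs). The members were all gene rows whose symbol begins with Nduf followed by a, b, c, s or v (assembly factors named Ndufaf left out), with Uqcr, with Cox and a digit from 4 to 8, or with Atp5, together with Sdha to Sdhd. This gave 86 of the 21674 genes in the table, with 38 in complex I, 4 in complex II, 8 in complex III, 19 in complex IV and 17 in complex V. The rule works on names alone, so it also took in Cox4nb, which is now placed in a membrane complex of the endoplasmic reticulum, and Cox7a2l, Atp5s and Atp5sl, which are related by name but are not core subunits. Genes encoded on mitochondrial DNA were not analysed here.

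The 42 libraries came from flow experiments in mice and from cultures. In partial carotid ligation the left carotid has low flow and the contralateral carotid high flow; sham arteries were dissected and the suture was left untied. Untreated intima at 48 h gave 3 low flow, 3 high flow and 3 sham libraries (a to c, letters that name the libraries only), from male C57BL/6J mice of 6 to 7 weeks. In similar mice, low flow intima was taken 48 h after ligation with IgG, anti-GPIba (against platelets), anti-Gr1 (against granulocytes), PBS liposomes or clodronate liposomes (against macrophages), and high flow intima with IgG or PBS liposomes, 2 libraries each. At 7 d, Rbfox2 EC-KO mice (Rbfox2 lox/lox with the Rosa26-mTmG reporter and the Cdh5(PAC)-CreERT2 transgene, which drives inducible Cre in endothelium) and littermate controls with the same Rosa26-mTmG and Rbfox2 lox/lox alleles but no Cre, males and females of 2 to 7 months, gave 3 low flow and 2 high flow libraries per genotype. Libraries of intima were pools of several arteries, flushed out with lysis reagent. Single libraries came from 1 low flow pair with PBS or clodronate liposomes read at 100 base pairs, from 1 aortic EC line carrying an inducible SV40 antigen (untreated, or with plasma, platelets and macrophages, or all 3), and from sorted primary ECs in culture (eGFP+, Rbfox2 EC-KO and control). Rbfox2, the gene deleted in the EC-KO, was at 1.09, 0.17 and 0.62 FPKM (a level corrected for transcript length and library size) in the 3 low flow EC-KO libraries against 3.27, 5.73 and 2.74 in their controls, at 0.79 and 1.05 against 3.66 and 3.84 at high flow, and at 0.67 against 9.33 in culture, so every EC-KO library was below every control library (log2 -2.61 at low flow and -2.06 at high flow, edgeR adjusted p = 0.69 and 1.0).

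The respiratory chain sits in the inner mitochondrial membrane. Complexes I (NADH dehydrogenase) and II (succinate dehydrogenase) pass electrons to ubiquinone, complex III passes them to cytochrome c, and complex IV (cytochrome c oxidase) passes them to oxygen. Complex V, the ATP synthase, uses the resulting proton gradient to make ATP. ECs rely largely on glycolysis for ATP, and the subunits are known as housekeeping genes that are raised together when mitochondria are made. Several complex IV subunits exist as a widely expressed copy and a copy typical of muscle or brown fat.

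Members were short transcripts. Their median effective length (the length over which a fragment can start) was 535 bases against 2116 in the other 21588 genes, and 55.8% of the members were below 600 bases against 8.12% of the others. Of the members, 70 matched a promoter in RefSeq (build GRCm38.p6; 250 bases before to 50 after the start). These windows held a median of 19 CpG dinucleotides, from 2 to 43, against 8 over 27025 genes. The 7-base core CATGCGC of the site bound by nuclear respiratory factor 1 was found, on either strand, in 13 of the 70 (18.6%) against 4.41% of all promoters. CCGGAAG, a core bound by ETS factors, was in 22.9% against 9.93%, AAGATGG, a core bound by YY1, in 17.1% against 7.28%, and TATAAA in 10% against 15.7%. The following stretches, from RefSeq on GRCm38.p6 and printed 5′ to 3′ on the strand of the gene, show the CATGCGC core or its reverse complement in capitals for 5 of these 13 members, whose levels or changes are given with the flow comparisons.
Atp5g2 (chr15:102671060-102671106, minus strand): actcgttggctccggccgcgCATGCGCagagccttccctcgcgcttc
Atp5k (chr5:108434420-108434466, minus strand): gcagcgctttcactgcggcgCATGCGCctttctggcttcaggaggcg
Cox6a1 (chr5:115349091-115349137, minus strand): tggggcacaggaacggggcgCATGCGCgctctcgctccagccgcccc
Ndufb6 (chr4:40279472-40279518, minus strand): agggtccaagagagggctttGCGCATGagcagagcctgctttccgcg
Sdhb (chr4:140961198-140961244, plus strand): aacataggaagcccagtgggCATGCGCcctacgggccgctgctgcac
In Atp5g2, Atp5k and Cox6a1 the core also lies on the other strand 3 bases upstream, so the 2 copies overlap. A match to these letters is a description of the sequence and not evidence that a factor was bound there.

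The intima expressed nearly the whole chain. The most abundant member of each complex per length, by mean FPKM over the 33 intima libraries of the replicated groups, was Ndufa4 in complex I (382, from 70.7 to 2138; a subunit named for complex I and now counted with complex IV), Sdhb, the iron-sulfur subunit of complex II (184, from 86.4 to 367), Uqcrb in complex III (418, from 53.0 to 2107), Cox4i1 in complex IV (627, from 177 to 2350) and Atp5b, the catalytic beta subunit of ATP synthase (622, from 225 to 1283). The FPKM here were scaled by the trimmed mean of M-values (TMM) within the untreated 48 h, treated 48 h and 7 d libraries separately, so levels are compared only within these 3 blocks, and the means over 33 libraries set across them are a description. The order changed between groups. In untreated high flow Atp5l (636 on average) and Atp5h (603) were above Atp5b (300.5), and in high flow with IgG Sdha (133) was above Sdhb (99.5) and Uqcrc1 (114) above Uqcrb (80.8).

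The common copy of each isoform set was above the tissue copy in every intima library, with 1 exception. In untreated high flow library c, Cox8b was at 302 FPKM and Cox8a at 244, and Cox7a1 was at 168 beside 292 of Cox7a2. Cox4i1, the main regulatory subunit of complex IV, was at 177 FPKM or more in every intima library, whereas Cox4i2, the copy known from lung, was at 0.956 FPKM or less. Cox6a2, a heart and muscle copy, was at 1.23 FPKM or less, and Cox7b2 and Cox8c, known from testis, at 1.40 and 0.588 FPKM or less. Ndufa4l2, a paralogue known to be raised by hypoxia, reached 3.86 FPKM. Cox6b2 reached 6.12 FPKM beside 56.5 FPKM or more of Cox6b1. Cox4i2, Cox6a2, Cox7b2 and Cox8c were below the count filter in every comparison. All 3 genes for the c subunit of the ATP synthase rotor were expressed, with Atp5g2 highest in 3 of 3 untreated high flow libraries (468, 381 and 371 FPKM, against 334, 250 and 235 for Atp5g3 and 203, 172 and 159 for Atp5g1).

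Depth ranged from 4064477 to 6794904 counts in the libraries read at 100 base pairs and from 9931356 to 19035957 in the others. All 11 endothelial markers were detected in every library. In the intima their sum was 4364 to 18002 CPM (counts scaled to library size), and it was 289 to 364 in the cell line. Untreated low flow libraries a and b stood apart from the other untreated ones. Their 20 most abundant genes took 28.9% and 30.2% of counts against 13.0% to 14.5% in the other 7, Actb alone took 10.6% and 10.1% against 0.516% to 3.74%, and their TMM factors were 0.569 and 0.549 against 1.12 to 1.27. In the treated experiment every low flow library carries the run code 160125 and every high flow library 160613, so flow and sequencing run cannot be told apart there. At 7 d all high flow libraries carry 160613, low flow replicate 1 of both genotypes 160125, low flow EC-KO replicate 4 and control replicate 5 160808, and the other low flow libraries 160613.

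Members took between 0.429% and 1.81% of all counts in a library. In the untreated intima they took 1.22%, 1.18% and 1.23% of counts at low flow, 1.54%, 1.40% and 1.76% at high flow, and 1.33%, 0.95% and 1.38% in sham. High flow was above both other groups without overlap. The low minus high flow difference was -0.355 percentage points and the high flow minus sham difference 0.345 (exact two-sided permutation p = 0.10 for each, adjusted p = 0.15 over 3 tests), and 0.10 is the smallest p that 3 against 3 libraries allow. Without sham library b the latter difference was 0.211. Low flow and sham differed by -0.00976 points (exact permutation p = 1.0). In the treated intima the order was the reverse. Members took 0.93% and 0.98% at low flow against 0.48% and 0.43% at high flow with IgG, and 1.08% and 1.21% against 0.52% and 0.62% with PBS liposomes. With anti-GPIba they took 0.60% and 0.71%, with anti-Gr1 0.69% and 0.58%, and with clodronate 0.81% and 1.02%. Counts of other genes shorter than 600 bases moved in the same libraries, with 2.79% and 2.56% at low against 1.06% and 0.86% at high flow under IgG. In the untreated intima that share did not follow the members, with 11.3%, 10.8% and 6.39% at low flow against 7.10%, 6.45% and 6.33% at high flow.

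**Figure D1:**
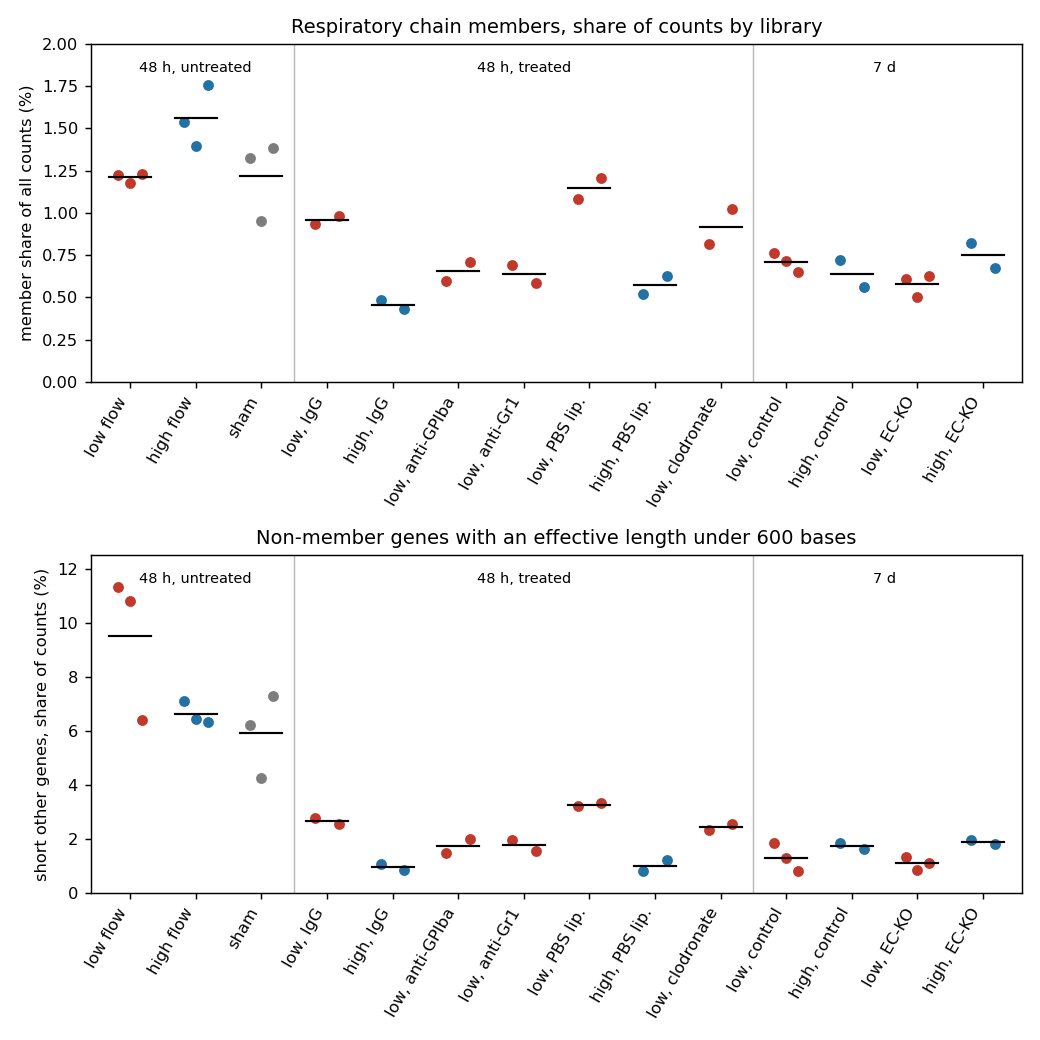
Share of all counts that fell on the 86 members (upper panel, %) and on other genes with an effective length under 600 bases (lower panel, %), by group; points are libraries, black lines are group means, red is low flow, blue high flow and grey sham. With IgG and PBS liposomes both shares were higher at low flow (members 0.93% to 1.21%) than at high flow (0.43% to 0.62%), a range that low flow libraries with anti-GPIba or anti-Gr1 overlapped, and in the untreated libraries the member share was highest at high flow (1.40% to 1.76%).

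The first question was whether low flow alters the chain in the untreated intima at 48 h. Against high flow, 5 of the 17 members grouped under complex V and 2 genes named for complex IV rose, while 4 complex I subunits and a pair of complex IV isoforms fell. The rises were seen with TMM scaling, and with library totals or with low flow library c alone no member was higher. By edgeR's quasi-likelihood test with Benjamini-Hochberg adjustment over all genes tested, 7 of the 80 members tested were higher and 6 lower at an adjusted p under 0.05. Of all 11236 genes tested, 46.2% were called, 23.6% higher and 22.6% lower. The median log2 fold change was 0.13 over members and -0.07 over all genes. Complex V held 5 of the 7 higher calls among its 17 genes (median 0.73), complex IV held 2 higher and 2 lower among 14 (median 0.21), complex I held 0 higher and 4 lower among 37 (median 0.04), and complexes II and III held none (medians -0.02 and 0.06).

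Atp5g1 (chr11:95930166-95936984 on mm9, minus strand) encodes the c subunit of the ATP synthase rotor. Its level was 637, 720 and 259 FPKM in low flow libraries a, b and c against 203, 172 and 159 at high flow, and 185, 106 and 244 in sham. Every low flow library was above every high flow and sham library, and library c was only slightly above the highest sham. Its log2 fold change against high flow was 1.59 ± 0.35 (SE; 3.00-fold, adjusted p = 0.0037). Atp5b (chr10:127520329-127527447) was at 640, 955 and 460 FPKM against 319, 256 and 326, a log2 fold change of 1.18 ± 0.34 (adjusted p = 0.017). Atp5a1, the alpha subunit of the same catalytic head, was at 469, 652 and 335 FPKM against 238, 208 and 267, a change of 1.02 ± 0.33 (adjusted p = 0.027). In all 3 genes low flow libraries a and b were above library c. Reads of Atp5b and Atp5a1 were partly divided by the authors' counter between this gene and similar sequences, since their count was not whole (further than 0.005 from a whole number) in 42.9% and 38.1% of the 42 libraries. Cox4nb rose by 0.95 ± 0.22 (9.23, 10.2 and 7.52 against 5.54, 4.97 and 3.30 FPKM, adjusted p = 0.0058). The other c subunit genes Atp5g3 (1.19 ± 0.33, adjusted p = 0.014) and Atp5g2 (0.90 ± 0.31, adjusted p = 0.036) and the complex IV subunit Cox5a (0.85 ± 0.31, adjusted p = 0.043) were also called, with library c inside the high flow range.

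Among the genes that fell, Ndufb10 (chr17:24859005-24861423), an accessory subunit of complex I, was at 242, 211 and 170 FPKM at low flow against 408, 339 and 385 at high flow, and its log2 level fell by 0.87 ± 0.21 (adjusted p = 0.0059). Ndufv3 (chr17:31657060-31668266), a small subunit of the NADH-binding module, was at 60.3, 63.1 and 57.8 FPKM against 110, 88.9 and 124 and fell by 0.84 ± 0.18 (adjusted p = 0.0036). Ndufb2, an accessory subunit, was at 31.8, 48.7 and 33.7 FPKM against 56.1, 55.5 and 68.6 and fell by 0.70 ± 0.23 (adjusted p = 0.030). Ndufb3 was also called, and in none of these 4 did the groups overlap. Sdha, the flavoprotein of complex II, was nearly level over the 9 libraries at 109 to 149 FPKM (127, 133 and 126 at low flow, 133, 138 and 149 at high flow), a log2 difference of -0.13 ± 0.22 (adjusted p = 0.66).

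These calls rest on the libraries and the scaling. With low flow library c alone against the 3 high flow libraries, 0 members were higher and 18 lower, in a fit whose spread comes from the high flow libraries alone, and with library totals in place of TMM, which moved the median of all genes from -0.07 to -0.69, 0 were higher and 16 lower. Leaving out low flow a or b gave 9 calls each, leaving out c gave 30 higher and 4 lower, and leaving out high flow a, b or c gave 7, 7 and 6. The share of all genes called in each of these refits is not given. The counts show only how member calls depend on libraries and scaling. Macrophage markers moved with flow too, with all 14 of the list detected in the low flow libraries and 1 at 0 in high flow library a, and sums of 2412 to 3571 CPM against 74.0 to 182 at high flow. Smooth muscle markers were at 2328 to 4319 CPM against 551 to 649, neutrophil markers at 475 to 835 against 8.37 to 21.2 and endothelial markers at 4364 to 5717 against 9479 to 11207, and the part of all these in the differences was not tested.

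**Figure D2:**
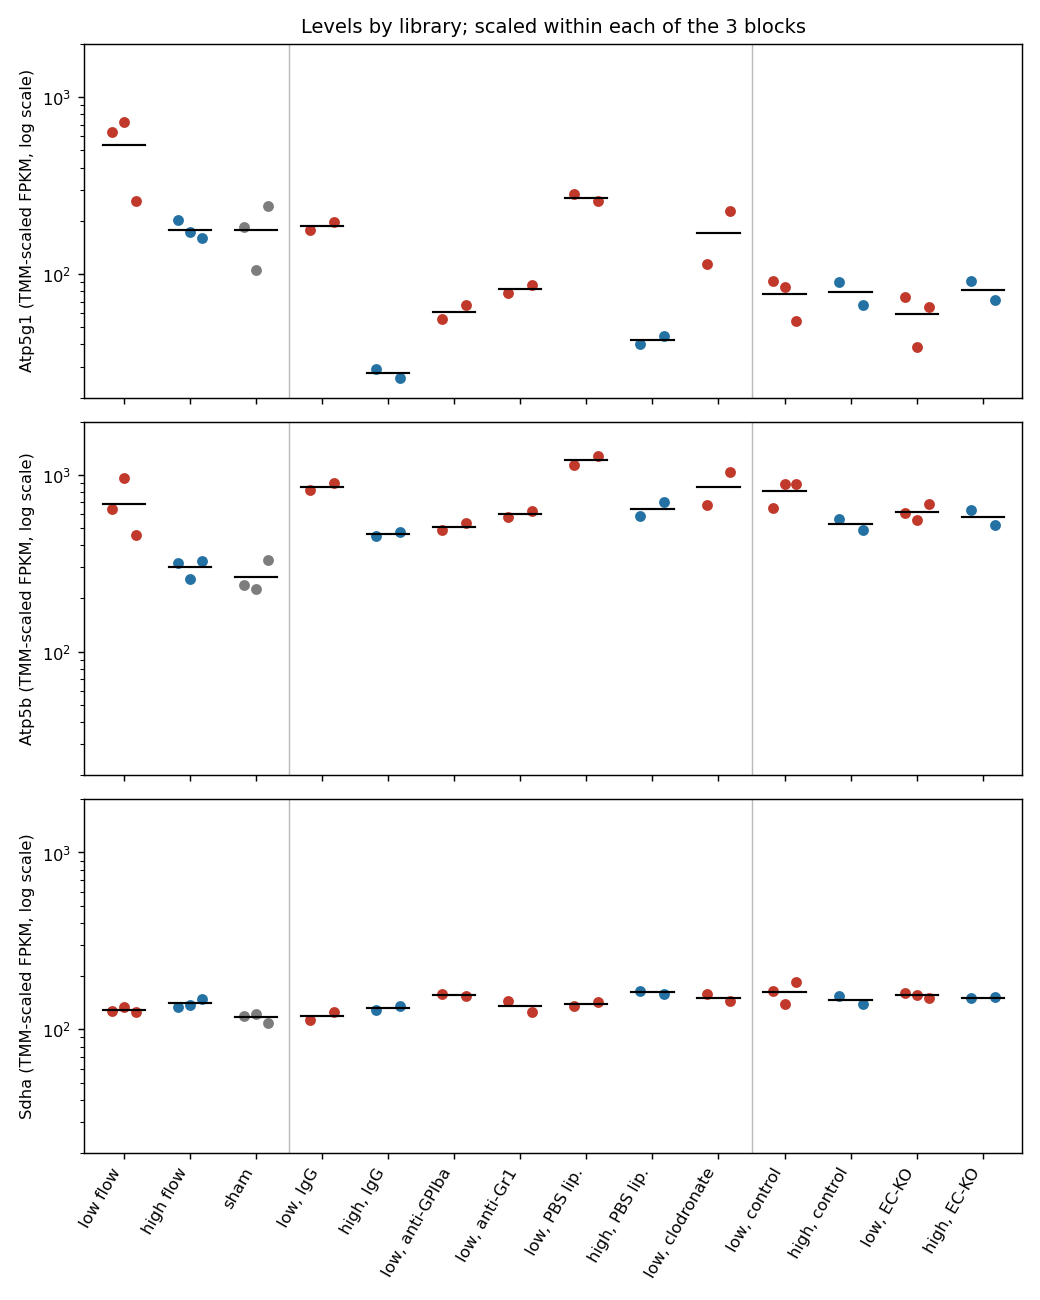
FPKM scaled by TMM within each of the 3 blocks (log scale, same range in each panel) of Atp5g1, Atp5b and Sdha by library; black lines are group means and vertical lines part untreated 48 h, treated 48 h and 7 d. Atp5g1 was higher at low than at high flow in both 48 h blocks (177 and 197 against 29.1 and 25.8 with IgG), Atp5b less so, and Sdha stayed between 109 and 184 throughout.

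The largest differences were in the isoforms Cox8b and Cox7a1. Cox8b (chr7:148084842-148086345), the copy of subunit VIII typical of muscle and brown fat, had 0, 0 and 1 counts in the low flow libraries, 38, 134 and 357 at high flow and 6, 1 and 19 in sham. Cox7a1 (chr7:30969190-30971047), the muscle and brown fat copy of subunit VIIa, had 1, 2 and 2 counts at low flow, 26, 76 and 202 at high flow and 5, 0 and 5 in sham. Both were lower at low than at high flow in every library (adjusted p = 0.00035 and 0.0008). Relative to the counts pooled over each group, high flow held 602 times as many Cox8b counts as low flow (95% exact conditional interval 108 to 23806) and 69.1 times as many Cox7a1 counts (29.3 to 214), intervals that cover counting error only. Without high flow library c, which held most of these counts, the ratios were 281 (49.8 to 11177) and 33.4 (13.8 to 105). Brown fat markers, a list of 9 genes led by Ucp1, moved with them. Their sum was 69.0, 182 and 1269 CPM at high flow, 14.1, 5.46 and 36.8 in sham and 0.761, 1.23 and 2.36 at low flow, where Ucp1 itself had 0, 0 and 4 counts against 112, 528 and 3334 at high flow. The order of the high flow libraries was thus the same for Cox8b, Cox7a1 and the markers, and the part of brown fat RNA in the flow difference was not tested. The common copies did not share this pattern. Cox8a was at 297, 303 and 173 FPKM at low flow against 293, 235 and 244 at high flow (log2 difference -0.01 ± 0.24, adjusted p = 0.98), and Cox7a2 at 340, 257 and 137 against 275, 224 and 292 (-0.12 ± 0.30, adjusted p = 0.77).

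**Figure D3:**
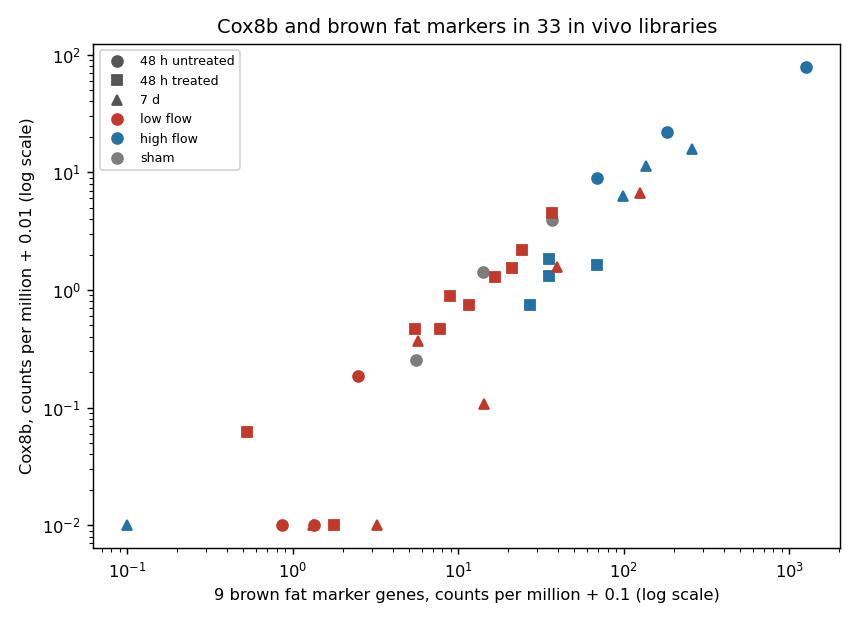
CPM of Cox8b (plus 0.01) against the summed CPM of 9 brown fat marker genes (plus 0.1), both on log scales, in 33 intima libraries; colour gives flow and shape the experiment. Libraries with under 3 marker CPM had at most 1 Cox8b count, and the 3 untreated high flow libraries had 38, 134 and 357.

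The promoters of these copies differ in CpG content. The 100 bases before the RefSeq start on GRCm38.p6 are shown 5′ to 3′ on the strand of the gene with each CG in capitals, because they set the common copy of each pair beside the tissue copy.
Cox7a2 (chr9:79759854-79759953, minus strand): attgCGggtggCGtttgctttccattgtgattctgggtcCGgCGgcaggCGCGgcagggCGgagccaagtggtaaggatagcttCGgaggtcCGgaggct
Cox7a1 (chr7:30184071-30184170, plus strand): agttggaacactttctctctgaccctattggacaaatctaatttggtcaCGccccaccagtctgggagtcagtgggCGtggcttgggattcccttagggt
Cox8a (chr19:7217617-7217716, minus strand): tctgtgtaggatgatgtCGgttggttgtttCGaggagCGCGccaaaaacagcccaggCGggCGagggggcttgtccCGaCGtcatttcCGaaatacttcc
Cox8b (chr7:140900447-140900546, minus strand): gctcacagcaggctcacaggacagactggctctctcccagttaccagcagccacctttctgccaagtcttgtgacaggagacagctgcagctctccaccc
The whole promoter window of Cox7a2 held 20 CpGs and that of Cox7a1 7, and that of Cox8a held 19 and that of Cox8b 2. Methylation was not measured in these samples.

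The second question was how low flow compares with sham, a left carotid that was handled but not ligated. Members were called in the higher direction only. Of 78 tested, 21 were higher and 0 lower, against 40.3% of 11164 genes called and 20.6% called higher. The median was 0.71 over members and -0.04 over all genes, and 70 members were above 0. Calls were spread over the chain, with 6 of 37 in complex I (median 0.47), 1 of 4 in complex II (0.29), 2 of 8 in complex III (0.78), 4 of 12 in complex IV (0.94) and 8 of 17 in complex V (1.02). Atp5g1 was 2.95-fold higher (log2 1.56 ± 0.42, adjusted p = 0.019) and Atp5b 2.52-fold (1.34 ± 0.35, adjusted p = 0.018). Cox5a (chr9:57369039-57380231), a nuclear-encoded subunit near the matrix face of complex IV, was at 655, 713 and 308 FPKM against 216, 113 and 277 in sham, a change of 1.44 ± 0.39 (adjusted p = 0.021). Ndufa12, an accessory subunit of complex I, was at 561, 540 and 224 FPKM against 206, 108 and 209 (1.31 ± 0.38, adjusted p = 0.025). In both, library c lay just above the highest sham library. Atp5a1 was higher by 1.05 ± 0.32 (adjusted p = 0.031). Cell markers moved with this comparison too. Macrophage markers summed to 2412 to 3571 CPM at low flow against 232 to 706 in sham, smooth muscle markers to 2328 to 4319 against 467 to 1650, and endothelial markers to 4364 to 5717 against 8955 to 11769, and their part was not tested. The count again turned on single libraries, since it was 3, 1 and 49 without low flow a, b or c and 1 without sham a or b, and it was 0 with low flow library c alone (median 0.00), where the spread comes from the sham libraries alone. With library totals, which moved the median of all genes from -0.04 to -0.71, 0 members were higher and 1 lower. These refits are given without the share of all genes called in each, so their counts are not set against other genes.

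High flow and sham are both vessels without reduced flow. Neither a member nor any other of the 11030 genes was called between them (0% of genes), although the unadjusted p was under 0.05 for 37 of 80 members and 868 of all genes by edgeR. By DESeq2 3 members were called, all higher at high flow. They were Ndufa1 and the muscle and brown fat copies Cox7a1 and Cox8b (DESeq2 adjusted p = 0.027, 0.021 and 0.049). The share of all genes called by DESeq2 is not given beside them. The member median was 0.49 against 0.01 over all genes, and 79 of 80 members were above 0 at high flow. Without sham library b the median was 0.30. Ndufb10 was at 408, 339 and 385 FPKM at high flow against 314, 179 and 240 in sham (0.61 ± 0.21, adjusted p = 0.46), and Uqcrb, a small complex III subunit, at 1045, 879 and 1149 against 802, 416 and 779 (0.61 ± 0.25, adjusted p = 0.57). Sham library b was the lowest of the 3 sham libraries in both. Brown fat markers were above sham in every high flow library, as given with Cox8b, and their part was not tested.

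**Figure D4:**
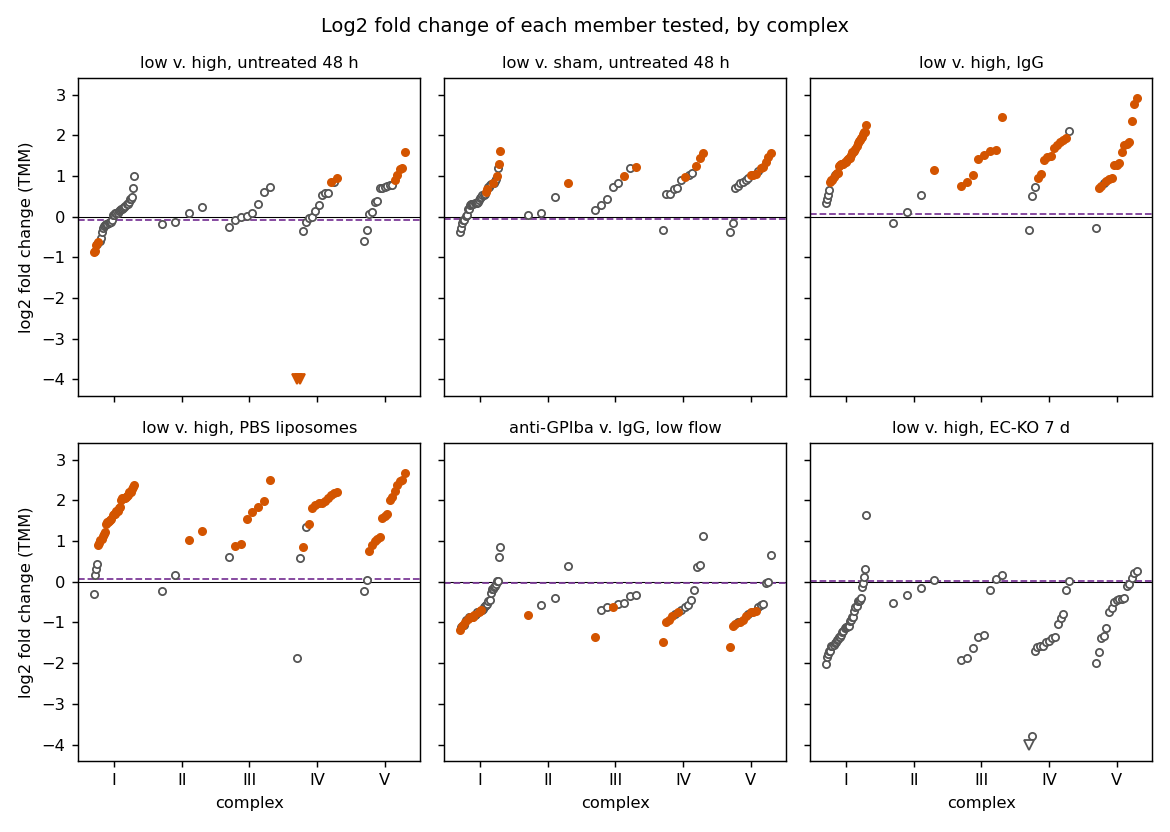
Log2 fold change (TMM scaling) of each member tested, by complex, in 6 comparisons; filled orange points have an adjusted p under 0.05, open points do not, triangles at the lower edge lie below -4 (Cox8b and Cox7a1 in the first panel, Cox8b in the last), and the dashed line is the median of all genes. Calls were spread over both directions in the untreated comparison of low and high flow (7 higher, 6 lower), and were all in the higher direction with IgG (67 of 81) and PBS liposomes (69 of 81).

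The same comparison of flow was made in mice given the control treatments, and here nearly the whole chain was higher at low flow with TMM scaling, while with offsets for transcript length the member medians were near 0 (-0.04 with IgG and -0.02 with PBS liposomes). With IgG 67 of 81 members were higher and 0 lower, against 40.5% of 13401 genes called and 22.8% called higher, with a member median of 1.36 (all genes 0.07). With PBS liposomes 69 of 81 were higher and 0 lower, against 35% called and 19.6% called higher, with a median of 1.65 (all genes 0.06). These comparisons share no library, but they were fitted together with a common estimate of the spread. Both also differ by the same run codes as well as by flow. Of the members, 66 were called in both, a count given without the share of all genes called in both. By complex, IgG and PBS liposomes gave 33 and 34 of 38 in complex I, 8 and 7 of 8 in complex III, 10 and 11 of 14 in complex IV and 15 of 17 in complex V in either. Complex II was the exception, with 1 and 2 of 4.

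Atp5g1 had the largest change with PBS liposomes, and with IgG it and Atp5k had the largest. Atp5g1 was at 177 and 197 FPKM at low flow against 29.1 and 25.8 at high flow with IgG (log2 2.76 ± 0.29, 6.79-fold, adjusted p = 0.00058), and at 283 and 257 against 40.1 and 44.7 with PBS liposomes (2.67 ± 0.29, 6.37-fold, adjusted p = 0.00021). Uqcrq (chr11:53241424-53244333), a small subunit of complex III that lies close to cytochrome b, was at 118 and 129 against 19.7 and 25.5 FPKM with IgG (2.45 ± 0.39, adjusted p = 0.0015) and at 172 and 160 against 25.0 and 33.1 with PBS liposomes (2.51 ± 0.39, adjusted p = 0.0012). Atp5k, the e subunit of ATP synthase known from its dimers, was at 33.8 and 36.1 against 7.65 and 1.54 FPKM with IgG (2.92 ± 0.64, adjusted p = 0.0056). With PBS liposomes it was at 42.9 and 49.9 against 5.75 and 10.6 (2.49 ± 0.61, adjusted p = 0.010). In none of these did the groups overlap. Atp5e (2.36 ± 0.28, adjusted p = 0.00058) and Ndufb2 (2.27 ± 0.47, adjusted p = 0.0045) completed the 5 largest changes with IgG, and Atp5g2 (2.47 ± 0.24, adjusted p = 0.00011) and Ndufs6 (2.38 ± 0.31, adjusted p = 0.00055), an accessory subunit of complex I, those with PBS liposomes. With IgG 1 library decided the size of 2 of these changes. Atp5k was at 4.47 without high flow replicate 1 and at 2.19 without high flow replicate 2, and Ndufb2 at 3.16 and 1.72, while Atp5g1 stayed between 2.68 and 2.86 whichever library was left out. Ndufb2, lower at low flow in the untreated intima, was at 46.6 and 42.2 FPKM against 13.5 and 4.97 with IgG.

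With TMM scaling the common isoforms named here rose, although most lost the rise under the offsets for length described with the length ranges. Cox4i1 changed by 0.95 with IgG and 1.42 with PBS liposomes, Cox6a1 by 1.40 and 1.95, Cox6b1 by 1.88 and 1.98, Cox7a2 by 1.46 and 1.81, Cox7b by 1.70 and 2.14, Cox8a by 1.49 and 1.93, Ndufa4 by 1.60 and 2.00, and Atp5g3 by 1.58 and 2.08, all on the log2 scale and all called. Within complex II the subunits parted. Sdhb was at 207 and 238 FPKM at low flow against 95.7 and 103 at high flow with IgG (1.16 ± 0.22, adjusted p = 0.0032) and rose by 1.25 ± 0.22 with PBS liposomes (adjusted p = 0.0023). Sdha was at 113 and 125 against 129 and 136 (-0.16 ± 0.17, adjusted p = 0.49) and at 135 and 143 against 165 and 159 (-0.23 ± 0.17, adjusted p = 0.33), so no low flow library was above a high flow library. Sdhc, a membrane anchor, changed by 0.12 (adjusted p = 0.63) and 0.17 (adjusted p = 0.49), and Sdhd, the other anchor, by 0.53 (adjusted p = 0.10) and 1.02 (adjusted p = 0.0094). Sdha has the longest transcript of the 4. The 11 members tested and called in neither comparison were Sdha, Sdhc, Ndufs1, Ndufv1, Ndufv3, Ndufa4l2, Cox6b2, Cox7a2l, Cox8b, Atp5s and Atp5sl.

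Fold change in these comparisons fell with transcript length for all genes. With IgG the median log2 change of non-member genes was 1.95 below 500 bases, 1.10 from 500 to 1000, 0.49 from 1000 to 2000 and -0.28 above 2000 bases. Members in the same ranges had medians of 1.66, 1.26, 0.91 and 0.63, below other genes in the shortest range and above them in the 3 longer ranges. With PBS liposomes members had 2.00, 1.61, 0.97 and 0.46 against 2.33, 1.24, 0.47 and -0.25. When the trend of each library's counts on length was removed by offsets, an analysis chosen after seeing the data, 7 members were higher and 5 lower with IgG (median -0.04) and 10 higher and 7 lower with PBS liposomes (median -0.02), against 15.3% of genes higher and 18.6% lower with IgG and 13.1% and 14.6% with PBS liposomes. Atp5g1 was called in both, at 1.49 (adjusted p = 0.0025) and 1.22 (adjusted p = 0.0060), as was Atp5a1 at 0.50 (adjusted p = 0.046) and 0.66 (adjusted p = 0.019), while Atp5k was at 0.18 and -0.88 and was called in neither. Of the other large changes, Atp5g2 remained higher with PBS liposomes (0.66, adjusted p = 0.026), while Uqcrq was at 0.50 with IgG (adjusted p = 0.21) and 0.26 with PBS liposomes (adjusted p = 0.52), Atp5e at 0.15 (adjusted p = 0.60) and Ndufb2 at 0.26 (adjusted p = 0.59) with IgG, and Ndufs6 at 0.18 with PBS liposomes (adjusted p = 0.52). Sdhb was not called either, at 0.20 (adjusted p = 0.38) and 0.26 (adjusted p = 0.27). Of the common isoforms only Cox7b remained higher with both treatments among the 8 given above (0.69, adjusted p = 0.034, and 1.04, adjusted p = 0.0080). Cox4i1 reversed to -0.53 with IgG and was called lower (adjusted p = 0.033), and was at -0.30 with PBS liposomes (adjusted p = 0.19). Cox6a1 (-0.39 and -0.19), Cox6b1 (-0.05 and -0.26), Cox8a (-0.30 and -0.19) and Ndufa4 (-0.33 and -0.30) were also below 0 with both, without calls. Ndufb10 was lower in both, at -0.90 (adjusted p = 0.0058) and -0.88 (adjusted p = 0.0075), as was Sdhc at -0.75 (adjusted p = 0.0070) and -0.69 (adjusted p = 0.011). In the untreated intima the same offsets gave 6 higher and 20 lower against high flow (median -0.21), with Atp5g1 at 1.31 (adjusted p = 0.0019), Atp5b at 1.11 (adjusted p = 0.015) and Atp5a1 at 0.95 (adjusted p = 0.028), and 16 higher and 7 lower against sham. Of all genes, 25.3% were higher and 23.3% lower against high flow and 22.4% and 20.1% against sham.

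**Figure D5:**
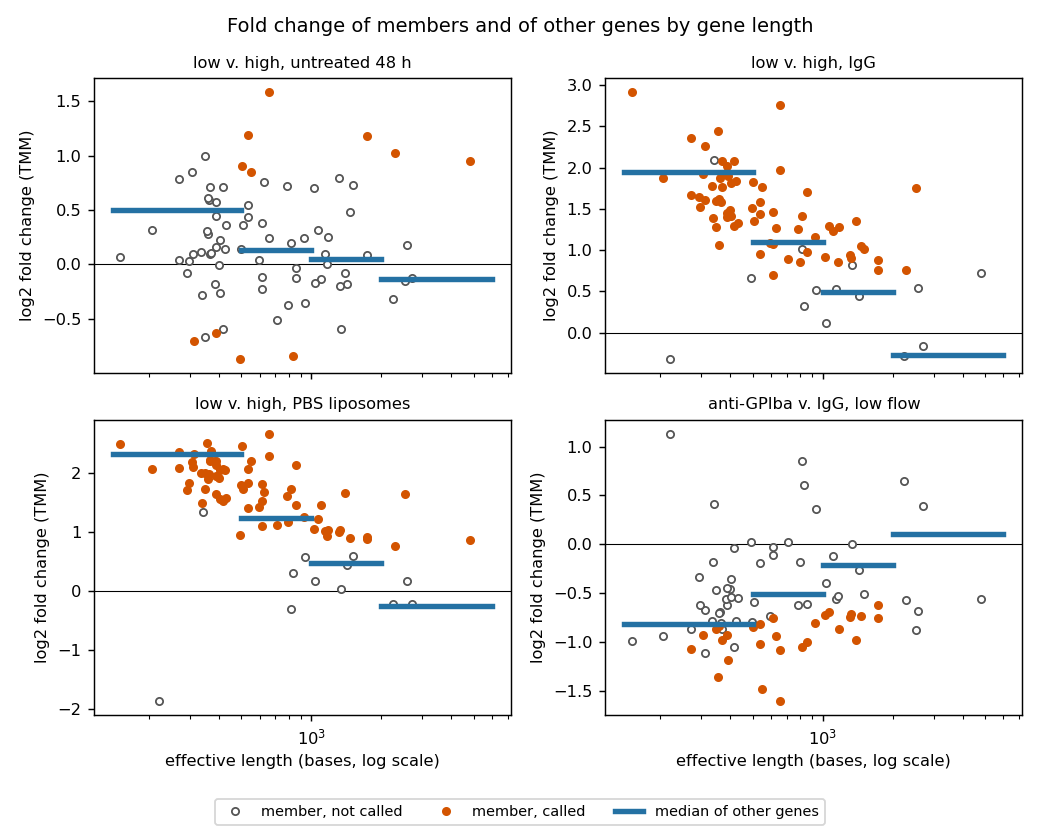
Log2 fold change (TMM scaling) of members against effective length (bases, log scale) in 4 comparisons; filled points have an adjusted p under 0.05, open points do not, and blue bars are medians of non-member genes in 4 length ranges (Cox8b and Cox7a1 lie below the first panel). With IgG the non-member medians ran from 1.95 in the shortest to -0.28 in the longest range.

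The treated low and high flow libraries differ by run code as well as by flow, and cell markers moved with flow too. With IgG, endothelial markers summed to 6229 and 5112 CPM at low flow against 17778 and 18002 at high flow, macrophage markers to 2725 and 2495 against 77.2 and 289, and smooth muscle markers (at most 1 of 9 at 0) to 4396 and 4731 against 600 and 859. Neutrophil markers summed to 479 and 166 against 8.06 and 59.9. With PBS liposomes, endothelial markers were at 4672 and 4578 CPM against 13460 and 10285. Macrophage markers there were at 1430 and 2423 against 121 and 220. Their part in the member differences was not tested, and in such bulk samples fewer cells of a type and less RNA per cell cannot be told apart.

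Platelet depletion with anti-GPIba under low flow was compared with IgG under low flow, libraries that carry the same run code. With TMM scaling 28 of 81 members were called lower after depletion and 0 higher, against 16.5% of 13401 genes called and 10.5% called lower. The median was -0.70 over members and -0.04 over all genes, with 71 members below 0 and 10 above. The lower calls were 11 of 38 in complex I, 1 of 4 in complex II (Sdhb), 2 of 8 in complex III, 5 of 14 in complex IV and 9 of 17 in complex V. Atp5g1 was at 55.7 and 66.8 FPKM with anti-GPIba against 177 and 197 with IgG, and fell by 1.61 ± 0.28 on the log2 scale (3.05-fold, adjusted p = 0.015). Cox5a was at 75.3 and 111 against 262 and 261 and fell by 1.49 ± 0.31 (adjusted p = 0.022). Uqcrq was at 30.7 and 65.7 against 118 and 129 (fell by 1.36 ± 0.38, adjusted p = 0.037), Ndufb6, an accessory complex I subunit, fell by 1.18 ± 0.30 (adjusted p = 0.032), and Ndufab1, the mitochondrial acyl carrier protein, fell by 1.08 ± 0.32 (adjusted p = 0.044). Sdha was at 159 and 155 against 113 and 125 (0.40 ± 0.17, adjusted p = 0.13), above the IgG range in both libraries. With length-adjusted offsets, Atp5g1 (-1.03, adjusted p = 0.029) and Cox5a (-0.86, adjusted p = 0.043) remained lower and 3 members were higher (Cox7a2l, Ndufb10 and Ndufv3), against 7.27% of genes lower and 7.51% higher. Uqcrq was at -0.91 without anti-GPIba replicate 1 and at -2.01 without replicate 2. Leaving out any of the 4 libraries compared left 0 members called, while the median stayed between -0.94 and -0.50. Each of these fits leaves 1 library in a group, so the spread comes from the other libraries fitted together. Platelet markers were at 23.0 and 28.9 CPM with anti-GPIba against 39.7 and 34.5 with IgG. Macrophage markers were at 240 and 335 CPM against 2725 and 2495 with IgG, smooth muscle markers at 777 and 1074 against 4396 and 4731, neutrophil markers at 5.49 and 15.4 against 479 and 166 and endothelial markers at 11156 and 10992 against 6229 and 5112. The part of all these was not tested.

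After anti-Gr1, also compared with IgG, no member was called. None of the 81 members and none of the 13401 genes (0%) passed the edgeR threshold, but the unadjusted p was under 0.05 for 53 members and 2432 genes, and 6 members were called lower by DESeq2. How many of all genes DESeq2 called is not given, so these 6 are not set against other genes. The member median was -0.68 (all genes 0.00), with 76 of 81 below 0. Atp5g1 was at 78.5 and 86.8 FPKM against 177 and 197 with IgG (-1.18 ± 0.27, adjusted p = 0.24), and Cox5a at 101 and 134 against 262 and 261 (-1.16 ± 0.31, adjusted p = 0.24). Macrophage markers were at 1400 and 1426 CPM against 2725 and 2495 with IgG and endothelial markers at 8360 and 9741 against 6229 and 5112. Neutrophil markers were at 25.6 and 38.9 against 479 and 166, and the part of these was not tested. Clodronate was compared with PBS liposomes. It gave 0 calls among members against 0.119% of genes, with 12 members and 2002 genes at an unadjusted p under 0.05 (DESeq2 also called 0 members), and a median of -0.42 (all genes -0.02). Atp5g1 was at 114 and 227 FPKM against 283 and 257 (-0.66 ± 0.27, adjusted p = 0.30), and the clodronate libraries differed 2-fold from each other. Leaving out a clodronate library leaves a single one in that group, with the spread taken from the other libraries fitted together, so only the median is given. The median was -0.26 without clodronate replicate 1 and -0.61 without replicate 2. Macrophage markers were at 257 and 255 CPM against 1430 and 2423, neutrophil markers at 33.3 and 38.7 against 126 and 413 and endothelial markers at 10074 and 6584 against 4672 and 4578, and their part was not tested.

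At 7 d the question was whether endothelial Rbfox2 affects the response. No member was called between EC-KO and control at low flow (0% of 13352 genes) or at high flow (0.00749%) by edgeR, with 1 and 0 members and 880 and 293 genes at an unadjusted p under 0.05. DESeq2 called 0 members in either. The medians were -0.31 and 0.24, but single libraries set them, since the first was 0.03 without control replicate 1, and -0.15 without EC-KO replicate 4, and the second was 0.03 without control replicate 5. Low flow EC-KO replicate 4 stood apart in fibroblast markers (1024, 4721 and 1113 CPM in EC-KO replicates 1, 4 and 5 against 1072, 584 and 405 in controls), macrophage markers were at 1058, 2032 and 1386 against 454, 1991 and 375, and their part was not tested. Atp5b was at 610, 555 and 681 FPKM in low flow EC-KO libraries (replicates 1, 4 and 5) against 645, 893 and 889 in controls (-0.39 ± 0.20, adjusted p = 0.69), and Atp5g1 at 74.4, 38.7 and 65.4 against 91.7, 85.0 and 54.5 (-0.37 ± 0.29, adjusted p = 0.73). The groups overlapped in both. Members took 0.61%, 0.50% and 0.62% of counts in low flow EC-KO against 0.76%, 0.72% and 0.65% in controls, and 0.82% and 0.68% in high flow EC-KO against 0.72% and 0.56%. The test of the difference in flow response between genotypes called no gene (0%), with 1 member and 538 genes at an unadjusted p under 0.05 and a member median of -0.53, which ran from -0.75 without high flow control replicate 4 to -0.14 without low flow control replicate 1.

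Between flows at 7 d, the members with short transcripts had negative medians at low flow. In controls the median was -0.85 below 500 bases and -0.34 from 500 to 1000, where other genes had -0.48 and -0.09, but 0.28 from 1000 to 2000 and 0.12 above 2000 bases. In EC-KO the medians were -1.48, -0.73, -0.11 and 0.04, and those of other genes -0.95, -0.32, 0.04 and 0.05. The share of counts on members was 0.708% at low against 0.639% at high flow in controls, where the libraries overlapped, and 0.578% against 0.749% in EC-KO, where they did not. In controls 2.4% of genes and 0 members were called, with 12 members and 3332 genes at an unadjusted p under 0.05, a median of -0.54 (-0.92 without low flow replicate 1 and -0.21 without high flow replicate 4), and 65 of 82 members below 0; DESeq2 called 4 members, all higher, against 11.3% of genes higher. In EC-KO 1.09% of genes and 0 members were called, with 49 members and 2099 genes at an unadjusted p under 0.05, a median of -1.09, and 72 of 82 below 0. DESeq2 called 22 lower, against 3.49% of genes. With the replicate number as a block, a pairing that no label states, members were called in both genotypes, as given with the processing. Cox4i1 was at 277, 182 and 229 FPKM at low against 526 and 423 at high flow in EC-KO (-1.05 ± 0.35, adjusted p = 0.19), and at 410, 220 and 177 against 451 and 313 in controls (-0.50 ± 0.35, adjusted p = 0.40). In both genotypes low flow replicate 1, which carries the run code of the earlier run, was the highest of its group. Complexes II and V moved least, with EC-KO medians of -0.24 and -0.45 against -1.10, -1.33 and -1.47 in complexes I, III and IV, and in controls Atp5a1 was at 303, 397 and 350 against 231 and 226 FPKM (0.62 ± 0.20, adjusted p = 0.095). Without the 2 low flow libraries of the earlier run, 6 members were higher and 33 lower in controls, against 15.3% and 13.8% of genes, and 39 were lower in EC-KO, against 4.53%. Leaving out control replicate 1 alone gave 7 higher and 35 lower in controls, against 15.4% and 14.1%. These fits still mix 2 run codes at low flow. With the libraries of the run of the high flow arteries only, which leaves 1 low flow library per genotype and assumes that it varies like the high flow pairs, 5 were higher and 25 lower in controls (16.4% and 16.1% of genes, median -0.82) and 17 lower in EC-KO (4.57%, median -1.12). Cell markers moved with flow over both genotypes, with macrophage markers at 375 to 2032 CPM at low against 54.0 to 141 at high flow, smooth muscle markers at 1132 to 1802 against 322 to 439 and endothelial markers at 5263 to 11161 against 15325 to 16741, and their part was not tested. Cox8b and the brown fat markers were highest in the same libraries here too, with Cox8b at 250 and 112 counts in high flow EC-KO (markers 257 and 98.5 CPM), 166 and 0 in high flow controls (137 and 0 CPM), and 111, 0 and 1 in low flow controls (125, 3.12 and 14.2 CPM). In the treated intima they parted. Cox8b was highest in anti-GPIba replicate 2 (4.48 CPM), where brown fat markers were at 36.5 and skeletal muscle markers at 140 CPM. The brown fat markers were highest in high flow PBS liposome replicate 2 (68.7 CPM), where Cox8b was at 1.63 CPM.

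In culture there was 1 library per condition, so no test was made and log2 ratios (with 1 FPKM added, for genes at 1 FPKM or more in either library) are a description. Between primary EC-KO and control ECs none of the 79 members compared differed 2-fold, against 3.31% of genes, and the median was -0.08, with Atp5g1 at 57.4 and 67.0 FPKM and Sdha at 133 and 132. In the EC line with platelets and macrophages, 11 of 80 members were 2-fold lower or more, against 5.02% of genes past 2-fold in either direction, and the median was -0.66. Atp5g1 was at 47.6 against 93.9 FPKM in the untreated line, whereas Atp5b was at 809 against 687. With plasma, 1 member was higher and 3 lower of 81, against 6.11% (median -0.36). With all 3 together 1 was higher and 2 lower, against 14%, and the median was 0.01. In the pair of 100 base pair liposome libraries, clodronate against PBS liposomes gave 2 higher and 1 lower of 82, against 6.62%, with a median of 0.22 where the replicated comparison had -0.42. The 2 that were higher were Cox7a1 (14.4 against 4.29 FPKM) and Cox8b (21.6 against 6.96), while brown fat markers were at 30.2 against 16.3 CPM.

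Other mitochondrial genes were examined as lists, whose counts stand beside the shares of all genes called given above (23.6% higher and 22.6% lower in untreated low against high flow, 22.8% higher with IgG, 19.6% higher with PBS liposomes, 10.5% lower with anti-GPIba). Of 27 import factors and carriers, 13 were higher and 0 lower in untreated low against high flow (median 0.83), 24 were higher with IgG (median 1.43) and 14 were lower with anti-GPIba (median -0.90). Slc25a5, the ADP/ATP carrier that exchanges the product of complex V, was at 6871, 7270 and 1667 FPKM at low flow against 454, 454 and 526 at high flow (3.45 ± 0.61, adjusted p = 0.00099), and again library c was the lowest of the low flow group. Cytochrome c (Cycs), which carries electrons from complex III to IV, was at 471, 451 and 172 against 78.9, 94.5 and 211 (adjusted p = 0.024), so library c lay within the high flow range. With IgG it rose by 2.39 ± 0.52 (adjusted p = 0.0053) and with anti-GPIba it fell by 2.19 ± 0.52 (adjusted p = 0.028). Cyc1, the complex III subunit whose symbol the rule does not match, rose by 0.76 ± 0.25 in the untreated intima (adjusted p = 0.027) and by 1.61 ± 0.28 with IgG (adjusted p = 0.0020). Slc25a5, Cycs and Cyc1 are given with TMM scaling only, not with length-adjusted offsets, library totals or low flow library c alone. Of 76 mitochondrial ribosomal protein genes, which build the ribosome that translates the mitochondrially encoded subunits, 24 were higher and 1 lower in the untreated comparison with high flow (median 0.31), 67 higher with IgG, 74 higher with PBS liposomes and 23 lower with anti-GPIba. With length-adjusted offsets, chosen after seeing the data, the ribosomal protein genes gave 23 higher and 4 lower in the untreated comparison, 20 higher with IgG, 19 higher with PBS liposomes and 6 lower with anti-GPIba, and the import factors and carriers gave 14 higher and 2 lower, 10 higher, 14 higher and 2 lower in the same order. In the 3 treated comparisons 0 genes of these lists were called in the opposite direction. The shares of all genes under these offsets stand with the length ranges and with anti-GPIba. For the treated comparisons they are below the TMM shares given here. Of 17 citrate cycle enzymes, 5 were higher and 0 lower in the untreated comparison, and of 29 assembly factors tested, 4 were higher and 4 lower. Among the 16 regulators of mitochondrial biogenesis tested there, 5 were higher and 3 lower. Myc rose by 3.32 ± 0.31 (adjusted p = 1.5e-05) and Pprc1, a coactivator related to PGC-1, by 1.51 ± 0.28 (adjusted p = 0.0013), whereas Ppargc1a (PGC-1 alpha), which is abundant in brown fat, fell by 2.07 ± 0.52 (adjusted p = 0.0081) from levels of 1.85 FPKM or less.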

How the data were processed

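Poly(A) RNA was made into libraries with a low input kit. The authors aligned reads with STAR 2.5.1b to mm9 and deposited RSEM 1.2.15 expected counts per gene, which were rounded here. A table row without a gene was left out, and 162 other value columns (further runs, RPKM and TPM among them) were not used. Counts were tested with edgeR 4.0.16 in R 4.3.3 (default expression filter, TMM, quasi-likelihood test, Benjamini-Hochberg over all genes tested, called at an adjusted p under 0.05). Untreated comparisons were fitted on their 2 groups, treated and 7 d groups together. DESeq2 1.42.0 was an alternative. FPKM were computed here from the deposited expected counts, the effective length and the library total, scaled by TMM within the untreated 48 h, treated 48 h and 7 d libraries. Named members are the 5 with the largest called change in each direction without overlap of groups, the most abundant of each complex, tissue isoform sets and Sdha to Sdhd; others were named after their values were seen. Members, lists and rules were chosen with earlier results of these data known. The study describes replicates as independent biological sets, each a pool of arteries, while the labels name no mice, so p-values measure the spread between pools. Replicate numbers repeat across groups without a stated pairing (correlations of deviations from 0.007 to 0.52) and were not used as pairs.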

Additional observations from a re-analysis of the deposited data

Results flagged for a closer look

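The share of counts on members differed in direction between the 48 h experiments. Low minus high flow was -0.355 percentage points in the untreated intima, with all 3 low flow libraries below all 3 high flow libraries, and 0.503 with IgG and 0.574 with PBS liposomes, with both low flow libraries above both high flow libraries in each. The difference between the experiments was not tested. Brown fat markers were at 69.0 to 1269 CPM in untreated high flow libraries and at 27.0 to 68.7 in treated ones, Actb took 10.6% and 10.1% of counts in untreated low flow libraries a and b, and treated low and high flow libraries carry different run codes. The part of these in the share was not tested.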

How the results depend on the processing

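Low flow against high flow in the untreated intima gave 13 member calls. It gave 6 with an added criterion of 1 on the log2 scale, 26 with length-adjusted offsets, 16 with library totals, 18 with low flow library c alone, and 6 to 34 leaving out 1 library; the member median of 0.13 turned to -0.21 with offsets, -0.63 with totals, -0.49 with library c alone and -0.029 without low flow a, and was 0.39 without low flow c. The 21 calls against sham became 1 with totals (median -0.10), 0 with library c alone (median -0.00395), and 1 to 49 leaving out 1 library. High flow against sham gave 3 with DESeq2. The 28 anti-GPIba calls became 8 with the criterion of 1, 5 with length-adjusted offsets and 0 leaving out any 1 library; anti-Gr1 gave 6 with DESeq2 and clodronate 0 to 4 leaving out 1 library. Calls under treated flow became 12 with IgG and 17 with PBS liposomes with offsets (medians -0.041 and -0.021), where Atp5k with PBS liposomes was at -0.88. At 7 d, controls gave 4 with DESeq2, 0 to 42 leaving out 1 library 39 without the 2 libraries of the earlier run and 30 within the run of the high flow arteries, and EC-KO gave 31 with its 2 groups alone, 22 with DESeq2, 39 without the earlier run and 17 within the one run. The low flow minus sham share became 0.00614 without low flow b, 0.0435 without sham a and 0.0712 without sham c; leaving out 1 library in turn it ranged from -0.144 to 0.0712. The causes were not tested, except that low flow library c alone leaves fewer samples. Shares of all genes called in the same settings are given above only for length-adjusted offsets and some 7 d fits. Elsewhere the member counts are not set against other genes. Of the counts and shares under other settings, 160 stayed within 1.5 times of the reported count or within 1 SD of the reported share, 38 moved further and 3 changed sign. Length-adjusted offsets, totals, library c alone and both choices of run were chosen after seeing the data.

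With the replicate number as a block, calls were 36 for anti-GPIba, 67 with IgG, 70 with PBS liposomes, 30 (2 higher, 28 lower) in 7 d controls and 46 lower in 7 d EC-KO, and 0 in the other comparisons fitted so. For these blocked fits the share of all genes called is not given, so the counts are not set against other genes. No paired analysis was possible in the untreated intima because its columns carry letters that could not be tied to the replicate numbers. Cox4i2, Cox6a2, Cox7b2 and Cox8c were below the count filter in every comparison, and low depth and absence of expression cannot be told apart for them.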
